A study of Mus musculus with 12 samples.

Results

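The proteasome genes on the array were taken by name, as every non-control probe whose gene name begins with Psma to Psmg followed by a number. This gave 44 genes and 67 probes, of 27962 gene names and 41174 probes in all. They were measured in 12 single blastomeres from 6 mouse embryos of CF-1 mice, an outbred stock, bred by natural mating and collected from the oviduct at about 36 h post coitus, at the 2-cell stage. Experiment 2 held the sister cells of pairs D, G and H, and experiment 1 those of pairs D, I and L, so each embryo gave 2 cells and each experiment 6. No cell was treated, all 12 share stage and stock, and the labels do not say how cell 1 and cell 2 were numbered. Each array carried the RNA of 1 cell, amplified in 2 rounds from its poly(A) transcripts, so the precision of every value is limited by the number of cells.

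The proteasome is the protease that degrades proteins tagged with ubiquitin. Its core particle is a barrel of outer alpha rings and inner beta rings, whose active sites face inward. The regulatory particle caps the barrel, with a base of ATPases that unfold substrates and a lid that removes ubiquitin. Other caps, PA28 and PA200, open the core without ubiquitin, and interferon-induced beta subunits can replace the standard ones. In early mouse embryos the ubiquitin and proteasome system takes part in removing proteins that the egg supplied.

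Signals below are the scanner's background-subtracted intensities divided by a percentile of their own array, in log2 units, with values under a common floor of -4.12 raised to it. A probe is called measured where the scanner software marks it well above background. The members' signals stood clear of background more often than those of the array as a whole. In each cell 34 to 63 of the 67 probes were measured, or 50.7 to 94.0%, against 21.9 to 78.7% of all probes. The fewest were in cell 1 of pair D of experiment 1 and the most in cell 1 of pair D of experiment 2. In all, 25 probes of 23 genes were measured on all 12 arrays, and 50 probes of 40 genes on at least 6, which made them eligible for testing. Of all 41174 probes, 5858 were measured on all 12 arrays and 16712 on at least 6. The 4 genes without a tested probe were Psma8, an alpha subunit of the testis, Psmb7, which carries the trypsin-like active site, and the regulatory subunits Psmd1 and Psmd13. A single probe each of Psmc2 and Psmd11 was measured on no array, although another probe of the same gene was measured on all 12. The name rule also takes in Psmc3ip, which is no proteasome subunit but a partner of the strand exchange proteins of meiotic recombination, and Psme2b-ps, a copy of Psme2. No probe is named Psme2, and signal of Psme2 and of its near-identical copy cannot be told apart, so Psme2b-ps is uncertain.

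Pair D of experiment 2 had the best detected arrays, with 64.3% of all spots of cell 2 and 78.8% of those of cell 1 well above background, against 22.1 to 52.8% on the other 10. The experiments also differed in dye, scan and slide: experiment 1 was scanned in a pair of channels with its signal in Cy5, although its labels give Cy3, and experiment 2 in Cy3 alone. The summed scaled signal of 20 probes of blastomere and oocyte markers was 83.4 to 115 in the cells of experiment 2 and 63.8 to 125 in those of experiment 1. Cumulus and granulosa markers summed to 0.0936 to 1.53 in experiment 2 and 0.0578 to 1.00 in experiment 1, and erythroid markers to 0.0363 to 0.46 and 0.149 to 3.46. The sums of oviduct, stroma and leucocyte markers were higher in every cell of experiment 1. Oviduct epithelium markers summed to 0.11 to 1.72 in experiment 2 and 7.92 to 62.3 in experiment 1, and stroma markers to 0.0806 to 1.28 and 11.2 to 61.4. Leucocyte and macrophage markers summed to 0.0738 to 1.55 and 4.58 to 230. Most of that last sum in each cell of experiment 1 came from a single probe of the macrophage lysozyme Lyz2, A_52_P238027. This probe read 2.07 to 7.77 log2 units in experiment 1.

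**Figure D1:**
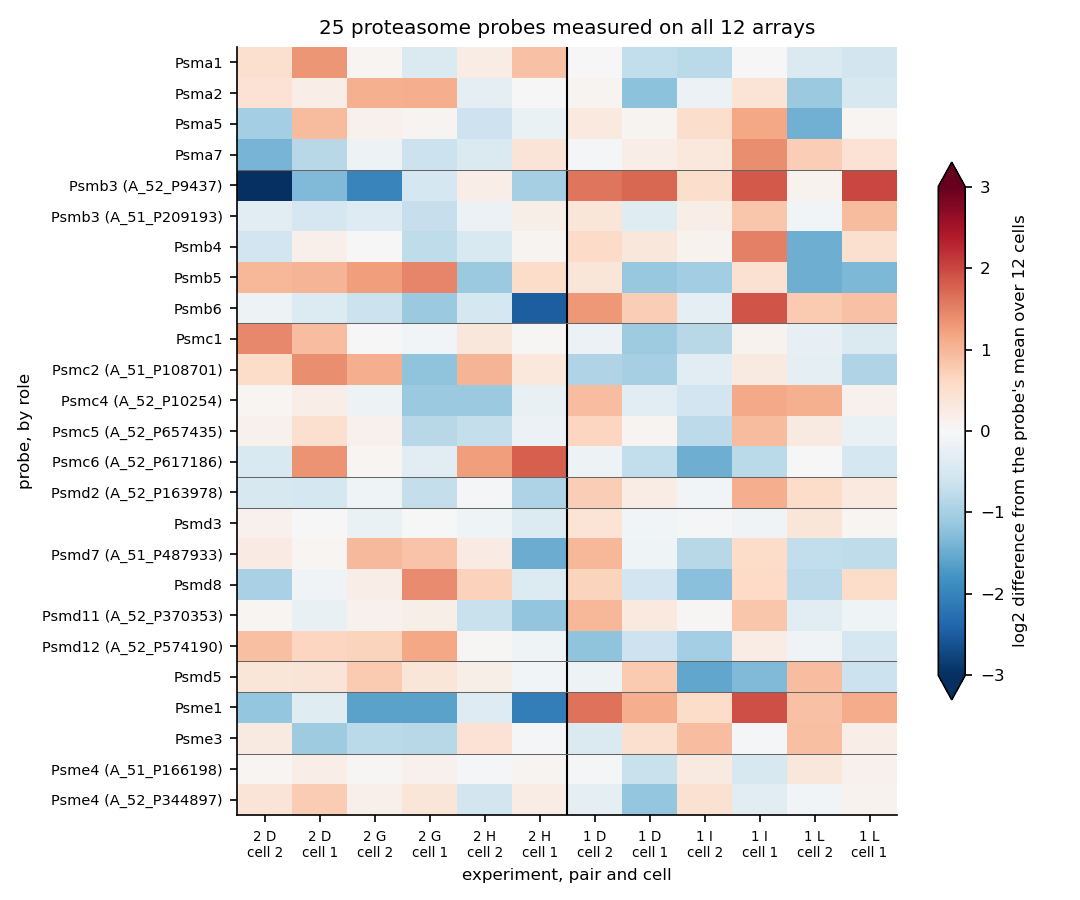
The 25 proteasome probes measured on all 12 arrays (rows, ordered by role) in each cell (columns, experiment 2 left of the line). Colour gives the log2 difference from the probe's own mean over the 12 cells, from -3 to 3. Psmd3 and the bright Psme4 probe stay close to white across the row, while Psme1 is blue in experiment 2 and red in experiment 1, as is the brighter Psmb3 probe except in cell 2 of pair H of experiment 2.

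The members with the brightest signals, an order that does not rank transcript amounts, included the steadiest ones. The probe A_51_P166198 of Psme4, which encodes PA200, had the highest mean signal. Its signal was 3.63 (lowest), 3.75 (median) and 3.88 (highest) in the 6 cells of experiment 2, against 3.01, 3.73 and 4.0 in experiment 1. Psmd3, a lid subunit, had 2.57, 2.91 and 3.11 in experiment 2, against 2.88, 2.99 and 3.40 in experiment 1. For both probes the experiments overlapped, with differences of 0.15 ± 0.23 and -0.20 ± 0.18 (SE). The lid subunit Psmd12, probe A_52_P574190, came next by mean signal, with 0.67, 1.45 and 1.97 in experiment 2, against -0.41, 0.23 and 1.02 in experiment 1. Other probes of Psme4 and Psmd12 were much dimmer. The Psme4 probe A_52_P344897, measured on all arrays, had means of -2.14 in experiment 2 and -2.57 in experiment 1.

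Sister cells were compared first by the size of the difference, without its sign. Over the 6 pairs, the absolute log2 difference averaged 0.25 ± 0.15 for Psmd3 (SD, n = 6), 0.33 ± 0.29 for the bright Psme4 probe and 0.43 ± 0.30 for Psmd11, another lid subunit, the smallest means among the 25 probes measured on all arrays. Psmd3 differed by 0.07 (pair I of experiment 1) to 0.50 (pair D of experiment 1), so sisters lay within 1.5-fold in all 6 pairs. The largest means were 1.31 ± 0.65 for Psmb3 (probe A_52_P9437), a beta ring subunit without an active site, 1.28 ± 0.32 for Psmd8, a lid subunit, and 0.97 ± 0.52 for the ATPase Psmc4 (probe A_52_P10254). The median over the 25 probes was 0.74, with 0.80 over 9 core probes and 0.75 over 11 regulatory probes, against 0.57 over all 5858 probes measured on every array.

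Psmd8 was the 1 member probe of 50 whose sisters were over 1.5-fold apart in every embryo, where 0.826% of all 16712 tested probes and 1.13% of those measured on all arrays were. Cells 2 and 1 of experiment 2 read -3.85 against -2.97 (pair D), -2.68 against -1.47 (pair G) and -2.17 against -3.29 (pair H). Those of experiment 1 read -2.19 against -3.46 (pair D), -4.12, the floor, against -2.27 (pair I) and -3.66 against -2.33 (pair L). Cell 2 was thus higher in 2 pairs and lower in 4, by 0.89 to 1.86 log2 units in size. The means of the experiments overlapped, -2.74 ± 0.84 in experiment 2 and -3.01 ± 0.84 in experiment 1 (SD, n = 6 each). The smallest of its 6 differences was 0.22 with quantile normalization, and 0 both with a percentile over all probes and with normexp, because more of its low values then lie at the floor.

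The brighter Psmb3 probe missed that count only through pair D of experiment 1. In cells 2 and 1 of experiment 2 this probe read -2.94 against -1.07 (pair D), -1.74 against -0.29 (pair G) and 0.45 against -0.75 (pair H). In experiment 1 the readings were 1.86 against 1.97 (pair D), 0.77 against 2.09 (pair I) and 0.34 against 2.25 (pair L). Cell 2 was the lower sister in 5 of 6 pairs. The dimmer Psmb3 probe, also measured on all arrays, did not repeat this. Its sisters differed by 0.55 ± 0.33 on average (SD, n = 6), with cell 2 lower in 3 of 6 pairs. Its sign was opposite to that of the brighter probe in pairs D (0.17), G (0.31) and H (-0.37) of experiment 2. The same held in pair D of experiment 1 (0.74), while pairs I (-0.64) and L (-1.05) shared the sign. For Psmc4, cells 2 and 1 of experiment 2 read -2.94 against -2.82 (pair D), -3.15 against -4.12 (pair G) and -4.12 against -3.24 (pair H). Its readings in experiment 1 were -2.09 against -3.33 (pair D), -3.58 against -1.87 (pair I) and -1.95 against -2.87 (pair L). Here cell 2 was the higher sister in 3 of 6 pairs.

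**Figure D2:**
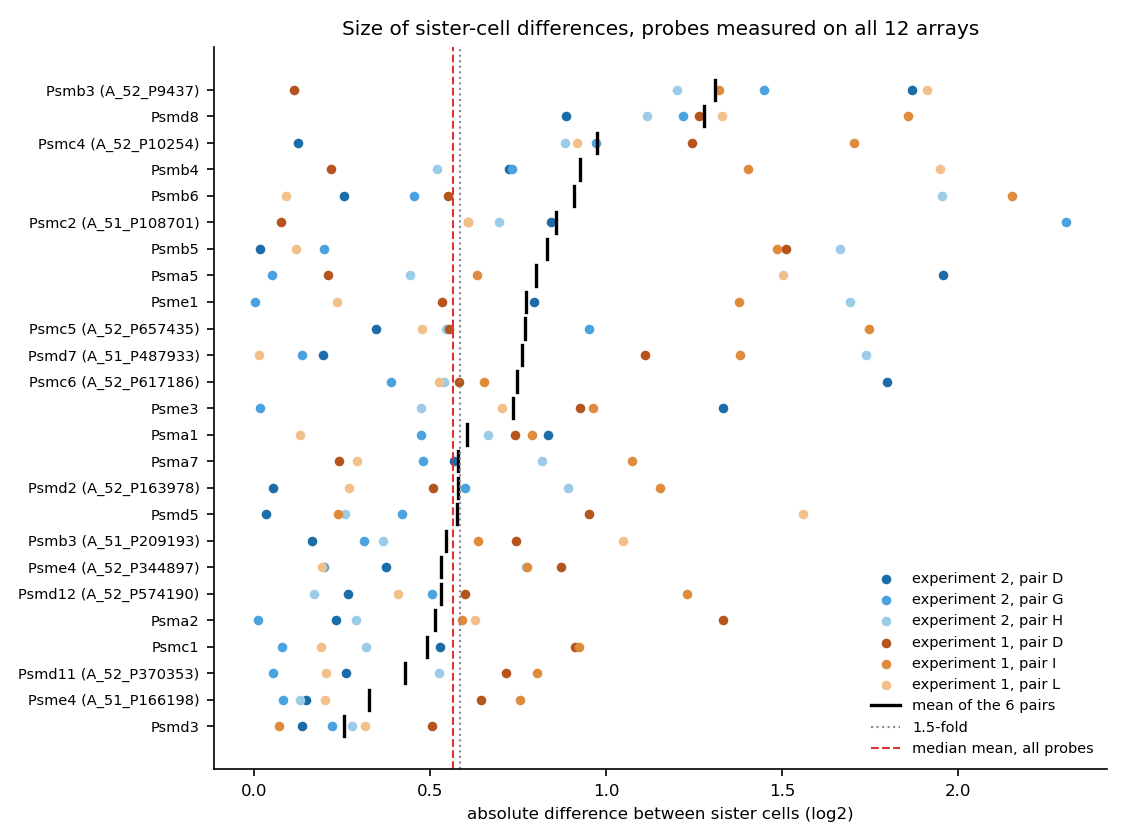
Absolute log2 difference between sister cells (x axis) of the 25 probes measured on all 12 arrays (rows). Points are the 6 pairs, black bars their mean, the dotted line 1.5-fold and the dashed line the median of the means of all 5858 probes. Psmd3 has the smallest mean, 0.25, and all 6 points of Psmd8 lie beyond 1.5-fold.

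With the sign kept, the core and the regulatory particle shared a direction in some embryos and not in others. In pair I of experiment 1, cell 2 was lower for 9 of 9 core probes and 10 of 11 regulatory probes, each of those 19 by over 1.5-fold, where 23.3% of all probes were lower by that much. The medians were -1.07 for the core and -1.15 for the regulatory particle, against 0.06 for all probes. Psmb6, the beta subunit with the caspase-like active site, differed most among the core probes, at -0.49 in cell 2 against 1.66 in cell 1. Psmb5, with the chymotrypsin-like site, had -2.90 in cell 2 and -1.42 in cell 1. The ATPases Psmc4 and Psmc5 differed by -1.70 and -1.74, and the lid subunit Psmd8 by -1.86. The regulatory probe that did not follow was Psmd3, with 2.95 in cell 2 and 2.88 in cell 1.

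Outside both particles, pair I did not go one way. Psme1, the alpha subunit of PA28, was lower in cell 2 by 1.38 log2 units, with -1.48 in cell 2 and -0.11 in cell 1. Psme3, the nuclear PA28 form, was higher in cell 2 by 0.96, and both measured Psme4 probes by 0.75 and 0.77. Psmd5, a chaperone of base assembly, differed by -0.24. Under 6 other ways of scaling, flooring or taking the values, cell 2 of pair I stayed lower for 9 core and 10 regulatory probes. The medians then ran from -1.07 to -0.75 for the core and from -1.15 to -0.53 for the regulatory particle, against 0 to 0.40 for all probes. Marker sums moved with this difference: stroma markers summed to 18.7 in cell 2 and 61.4 in cell 1, and leucocyte and macrophage markers to 9.96 and 21.2. Their part in it was not tested.

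Pair D of experiment 1 ran the other way. Cell 2 was higher for 7 of 9 core probes (median 0.55) and 10 of 11 regulatory probes (median 0.58), against a median of 0.07 for all probes. By over 1.5-fold, 4 core and 5 regulatory probes were higher, where 23.2% of all probes were. With the percentile over all probes the medians were 0.022 and 0.053 against -0.45 for all probes, and with normexp 0.16 and 0.092 against -0.20, with 5 of 9 and 7 of 11 probes higher in both. Psmb5 had -1.50 in cell 2 and -3.01 in cell 1, and the ATPase Psmc4 had -2.09 and -3.33. Stroma markers summed to 36.9 in cell 2 and 30.1 in cell 1, and leucocyte and macrophage markers to 7.92 and 4.58.

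In 3 other pairs the medians of the particles differed in sign. In pair L of experiment 1, cell 2 was lower for 7 of 9 core probes (median -0.63), where 39.8% of all probes were lower. Cell 2 was higher for 9 of 11 regulatory probes (median 0.31), where 3521 of all 5858 were. By over 1.5-fold, 5 core probes were lower there, where 15.7% of all probes were, and 2 regulatory probes higher, where 28.7% were. The core probes of Psmb4 and Psma5 differed by -1.95 and -1.50. In pair H of experiment 2, cell 2 was lower for 7 of 9 core probes (median -0.44), where 47.1% of all probes were lower. Cell 2 was higher for 8 of 11 regulatory probes (median 0.32), where 2656 of all 5858 were. Over 1.5-fold were 3 core probes downward, where 18.6% of all probes were, and 4 regulatory probes upward, where 19.1% were. In pair D of experiment 2 the core median was -0.57, with 6 of 9 lower, where 52.6% of all probes were lower. The regulatory median was 0.05, with 5 probes lower and 6 higher. Lower by over 1.5-fold were 4 core and 3 regulatory probes, where 18.0% of all probes were. Higher by that much were 0 core and 0 regulatory probes, where 14.3% of all probes were. Pair G of experiment 2 had medians of 0.31 and 0.14, with 1 core and 4 regulatory probes higher by over 1.5-fold, where 26.2% of all probes were. All-probe medians of these 4 pairs were 0.18, 0.00, -0.03 and 0.10. With the percentile taken over all probes, every median in pairs L and G fell below 0, that of all probes included, to -1.05 in pair L and -1.70 in pair G. Stroma markers summed to 11.2 and 17.9 in cells 2 and 1 of pair L, and leucocyte and macrophage markers to 29.9 and 230. Their part was not tested.

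**Figure D3:**
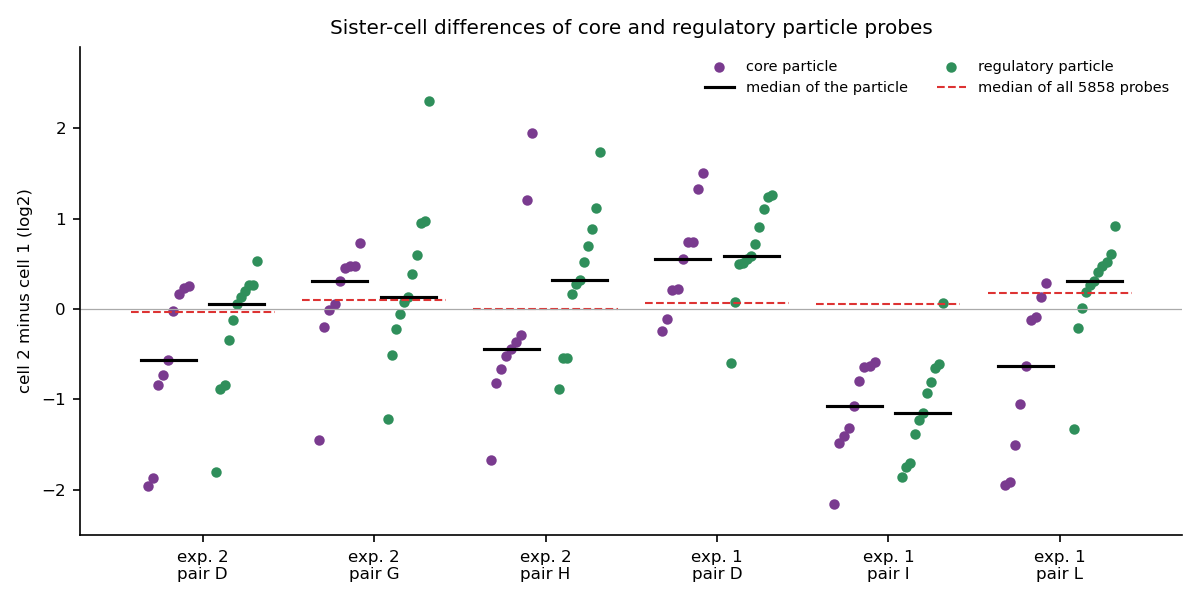
Cell 2 minus cell 1 in log2 units (y axis) for each core and each regulatory probe measured on all 12 arrays, by embryo (x axis, experiment 2 first). Black bars are the medians of 9 core and 11 regulatory probes, dashed lines those of all 5858 probes. In pair I of experiment 1 all core points and all regulatory points but 1 lie below 0.

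The cell number itself carried no shared direction that passed. Between cell 2 and cell 1, with the embryo as a block, 0 of 50 member probes passed in limma at an adjusted p of 0.05, as did 0.0% of all probes. At an unadjusted p under 0.05 there was 1 member of 50 (3.22% of all probes), Psmd10, an assembly chaperone also known as gankyrin, with a difference of 0.71 ± 0.30 (SE; adjusted p = 0.663). Psmd10 was higher in cell 2 in 5 of 6 pairs, although by 0.018 only in pair H of experiment 2, and in pair I of experiment 1 both cells lay at the floor. Cell 1 also lay at the floor in pairs G and H of experiment 2 and pairs D and L of experiment 1. The size of the difference thus depends on the floor. Whether the contrast differed between experiments was tested as an interaction, in which 0 of 50 members passed (0.0% of all probes), with 3 at an unadjusted p under 0.05 (3.87% of all probes).

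Between embryos of the same experiment, 2 of 50 member probes passed the F test in limma, where 5.73% of all probes did, and 12 had an unadjusted p under 0.05, where 30.2% did. Both were core subunits without an active site, and both were highest in pair D of experiment 2. Psma4 (probe A_52_P81468, adjusted p = 0.0295) had -2.80 and -2.04 in cells 2 and 1 of pair D, -3.67 and -4.12 in pair G, and -4.12 in both cells of pair H. Psmb2 (adjusted p = 0.0234) had -3.0 and -2.64 in pair D and -4.12 in the 4 cells of pairs G and H. The values of -4.12 are the floor and have no order. In experiment 1 both genes lay at or near the floor, up to -4.10 for Psma4 and up to -3.56 for Psmb2, in cell 2 of pair L. A second Psma4 probe, measured on 5 arrays and so not tested, was likewise highest in pair D of experiment 2, with -3.06 and -2.17. Pair D has the highest detection of all arrays and a slide of its own in experiment 2, so embryo and slide cannot be told apart. The count of 2 ranged from 0 to 9 when single cells were left out, while the share of all probes ranged from 1.58 to 24.9%: 0 without cell 1 of pair D of experiment 1 or either cell of pair H, 1 without cell 2 of pair D or either cell of pair I of experiment 1 or cell 1 of pair D of experiment 2, 9 (24.9% of all probes) without cell 1 and 4 (16.4%) without cell 2 of pair L, and 4 without cell 1 and 5 without cell 2 of pair G. Without the mean trend in the variance prior, added after seeing the data, neither gene passed (adjusted p = 0.0632 and 0.0623). Psma4 passed under 7 and Psmb2 under 10 of 23 alternatives, and with the percentile over all probes neither did (adjusted p = 0.738 and 0.213).

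Between the experiments, probes of 2 of the 3 PA28 genes were lower in experiment 2, Psme1 by 5.26-fold. In all, 4 of 50 probes passed in limma with the embryo as a random block, 1 higher and 3 lower in experiment 2, where 7.13% of all probes passed (3.26% higher, 3.87% lower). At an unadjusted p under 0.05 there were 15, of which 7 were higher, against 18.6% of all probes. The share of members that passed was thus close to that of the array. The count of 4 was 2 without either cell of pair D of experiment 1 or without cell 2 of pair G of experiment 2, and 1 without cell 1 of pair L of experiment 1. Dye, scan and slide go with the experiment, so none of these differences can be told apart from them.

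**Figure D4:**
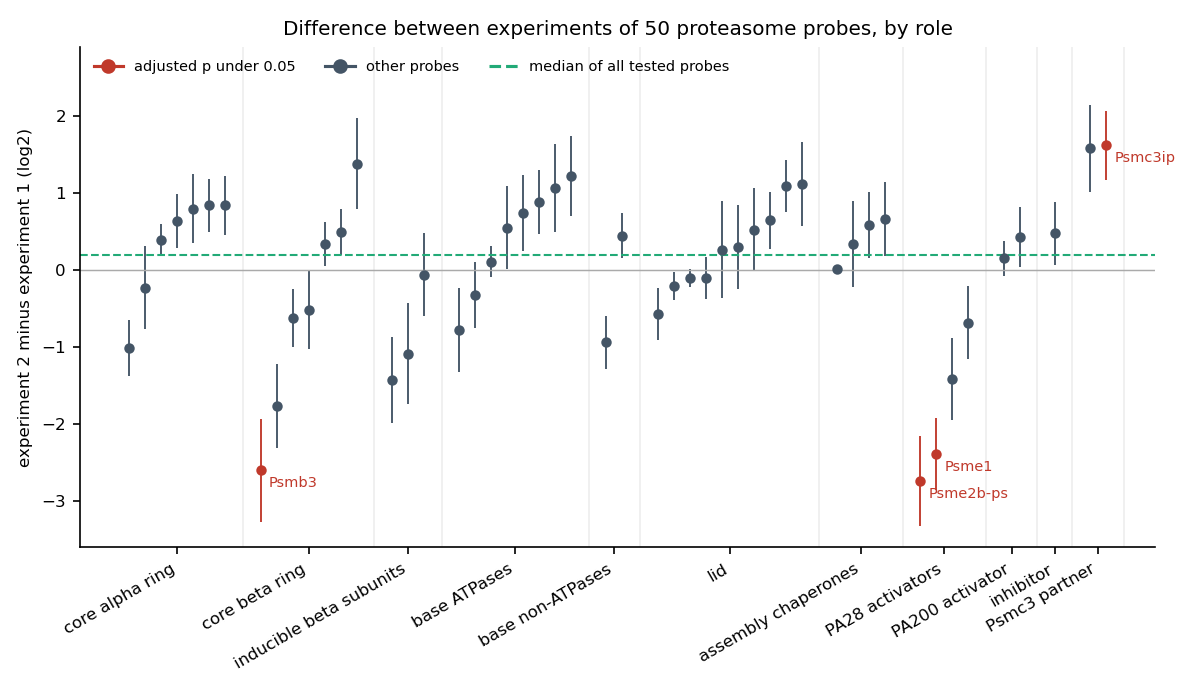
Experiment 2 minus experiment 1 in log2 units (y axis) with its standard error for the 50 tested probes, grouped by role (x axis). The dashed line is the median of all 16712 tested probes, 0.19, and red marks an adjusted p under 0.05. All 4 PA28 probes and all 3 probes of inducible beta subunits lie below 0.

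Psme1 encodes the alpha subunit of PA28, the ring that interferon induces. Its signal was -4.12 (lowest), -3.42 (median) and -2.41 (highest) in the 6 cells of experiment 2, against -1.48, -0.94 and -0.11 in experiment 1. Every cell of experiment 2 thus lay below every cell of experiment 1. The difference was -2.40 ± 0.47 (SE), 5.26-fold lower in experiment 2 (adjusted p = 0.00823). The probe A_52_P305289 of Psme2b-ps, the uncertain copy of the beta subunit, was lower by 2.74 ± 0.58 (adjusted p = 0.0127), a size that the floor sets in part, since 4 cells of experiment 2 lay on it. Over the alternatives it was -4.70 to -1.53. It had -4.12, -4.12 and -2.06 in experiment 2, where 4 of 6 arrays measured it, against -2.0, -0.82 and 0.07 in experiment 1. The cells did not overlap. Among tested probes, 3.97% lay lower in experiment 2 without overlap. The other probe of Psme2b-ps had -4.12, -3.98 and -3.38 in experiment 2, against -3.82, -2.27 and -1.56 in experiment 1, which overlapped (difference -1.42 ± 0.53, adjusted p = 0.151). Psme3, the third PA28 gene, differed by -0.69 ± 0.47 (adjusted p = 0.46).

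Oviduct and stroma markers went with the PA28 difference, but only 1 tested leucocyte and macrophage probe passed. Over all tested probes, 3.26% were higher in experiment 2 and 3.87% lower. Of 18 tested blastomere and oocyte probes 3 were higher and 1 lower, and none of 4 cumulus and 6 erythroid probes passed. Of 9 tested oviduct probes 5 were lower in experiment 2. Of 16 stroma probes 8 were tested and 7 of them were lower in experiment 2. Of 22 leucocyte and macrophage probes 8 were tested, with a median difference of -0.33, and 1 was lower. This was the Lyz2 probe A_52_P238027, with -3.97 ± 0.38 in experiment 2 and 4.18 ± 2.02 in experiment 1 (SD, n = 6 each). The other Lyz2 probe differed by 0.0086 ± 0.34 (SE, adjusted p = 0.998). The 4 probes of Ptprc, the common leucocyte antigen, were measured on at most 1 array of experiment 1 each, and the stroma marker Pdgfrb on none. Other leucocyte and macrophage probes were measured on more arrays of experiment 1 than of experiment 2. They were Adgre1 A_51_P251768 (5 against 0), Csf1r A_51_P365885 (3 against 0), Fcer1g A_51_P405476 (5 against 2) and Tyrobp (5 against 3). The other Adgre1 probe (1 against 3) and the other Csf1r probes (1 against 4 and 0 against 3) went the other way, as did Cd68 (2 against 4). The part of these cell types in the PA28 result was not tested. Psme1 passed under 23 of 24 alternatives, at -2.66 to -1.69, but not with the percentile over all probes (-2.47, adjusted p = 0.141). Psme2b-ps passed under 22 of 23, but not without cell 1 of pair L of experiment 1 (adjusted p = 0.0605).

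The inducible beta subunits Psmb8, Psmb9 and Psmb10 replace the active subunits of the core in immune cells. They had negative differences in 3 of 3 tested probes, where 5900 of all 16712 tested probes had, and none passed. Psmb9 had -4.12, -4.12 and -3.73 in experiment 2, where 4 of 6 arrays measured it, against -3.74, -2.75 and -1.01 in experiment 1 (difference -1.43 ± 0.56, adjusted p = 0.171). The ranges touched only in the highest cell of experiment 2 and the lowest of experiment 1. Psmb10 had -4.12, -3.19 and -2.21 in experiment 2, against -3.68, -1.87 and -0.96 in experiment 1 (-1.09 ± 0.65, adjusted p = 0.399). Psmb8, probe A_51_P345366, differed by -0.06 ± 0.53 (adjusted p = 0.965), with 3 cells of experiment 2 at the floor. The size depends on that floor: none of the 3 differences was above -1.45 with a floor per array, -1.80 with a lower floor and -1.50 with the deposited values. They were smaller with normexp (-0.82 to -0.15). With the percentile over all probes they ran from -1.44 to -0.49, and with quantile normalization from -1.59 to -0.38.

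**Figure D5:**
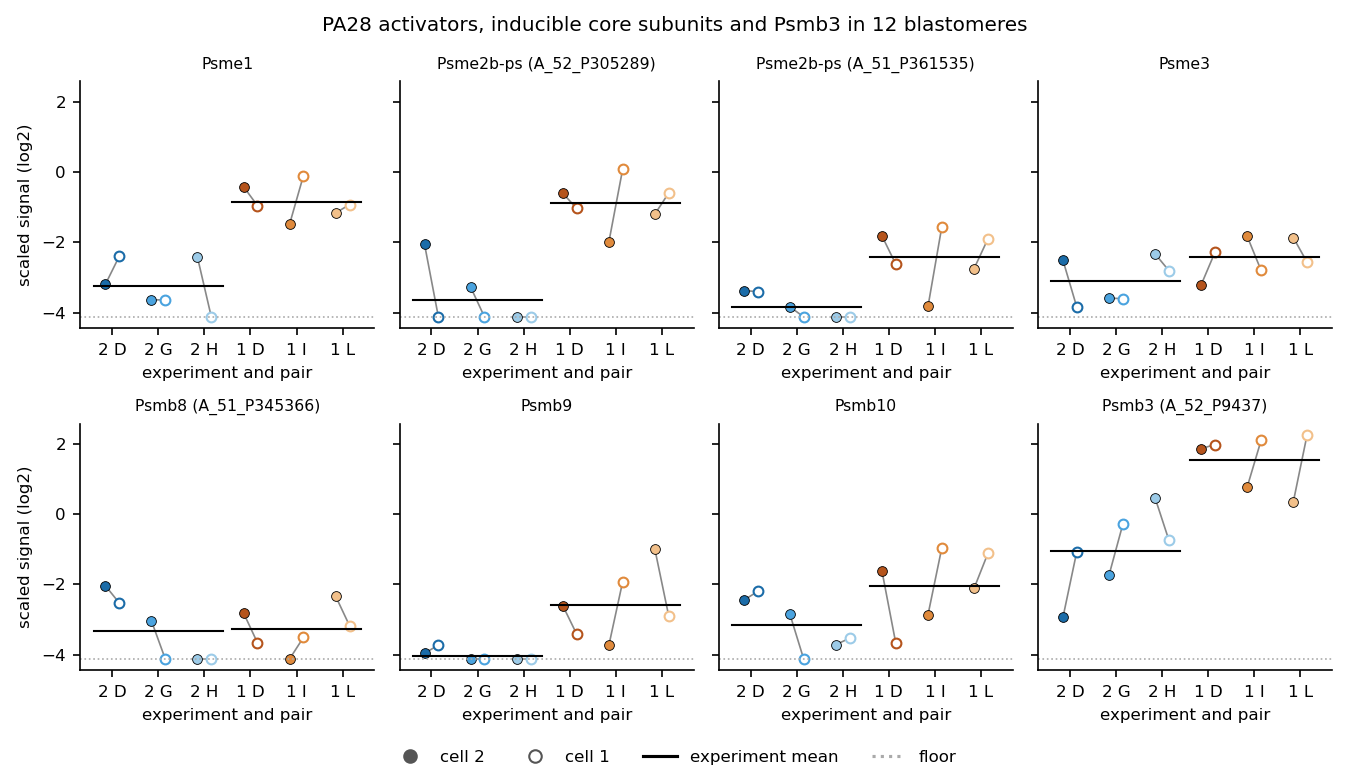
Scaled signal in log2 units (y axis) of the 4 PA28 probes, 3 probes of inducible beta subunits and the brighter Psmb3 probe in each cell, by experiment and pair (x axis, experiment 2 left). Filled points are cell 2, open points cell 1, grey lines join sisters, black bars are experiment means and the dotted line is the floor at -4.12. Psme1 and the left Psme2b-ps probe show no overlap between experiments.

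In the standard core, the beta ring held the largest differences, in both directions. The brighter Psmb3 probe was 6.08-fold lower in experiment 2, by 2.60 ± 0.67 log2 units (adjusted p = 0.033). Its cells had -2.94, -0.91 and 0.45 in experiment 2, against 0.34, 1.91 and 2.25 in experiment 1. Cell 2 of pair H in experiment 2 and cell 2 of pair L in experiment 1 overlapped. The dimmer Psmb3 probe went the same way with a smaller difference, -0.63 ± 0.38 (adjusted p = 0.397), so the probes of this gene disagree in size. Psmb3 no longer passed without cell 1 (adjusted p = 0.069) or cell 2 (0.0657) of pair D, cell 1 of pair I (0.0696) or cell 1 of pair L (0.115) of experiment 1, or cell 2 of pair G of experiment 2 (0.0861), nor with the percentile over all probes (0.411).

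Psmb6 and Psmb5, subunits with different active sites, had differences of opposite sign, and neither passed. Psmb6 had -2.69, -0.81 and -0.37 in experiment 2, against -0.49, 0.61 and 1.66 in experiment 1 (-1.77 ± 0.55, adjusted p = 0.0736). A single cell of experiment 1, cell 2 of pair I, lay within the range of experiment 2. Psmb5 had -2.99, -0.86 and -0.41 in experiment 2, against -3.32, -2.96 and -1.42 in experiment 1 (1.38 ± 0.59, adjusted p = 0.22). Its lowest cell in experiment 2, cell 2 of pair H, lay within the range of experiment 1. In the alpha ring 5 of 7 tested probes had positive differences, where 10812 of all 16712 tested probes had. They reached 0.84 for Psma1 and Psma2, and Psma7 had -1.02 ± 0.37 (adjusted p = 0.128). None of the alpha ring passed.

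In the regulatory particle 13 of 20 tested probes had positive differences, a share close to that of all tested probes (10812 of 16712). The 20 differences ran from -0.94 to 1.22, and none passed. The ATPase Psmc6, probe A_52_P617186, had -2.56, -1.44 and -0.31 in experiment 2, against -3.57, -2.73 and -2.10 in experiment 1 (1.22 ± 0.52, adjusted p = 0.211). Psmd12, by the probe whose levels are given above, differed by 1.09 ± 0.34 (adjusted p = 0.0781). Its other tested probe, A_51_P500577, differed by -0.10 ± 0.12 (adjusted p = 0.653) and left the floor only in cell 2 of pair L of experiment 1. Psmd2, the scaffold that receives ubiquitin carriers, went the other way, by -0.94 ± 0.34 (adjusted p = 0.135). Psmd11 had -0.82, 0.28 and 0.55 in experiment 2, against 0.04, 0.53 and 1.37 in experiment 1 (-0.57 ± 0.34, adjusted p = 0.394). In all of these the experiments overlapped.

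Among the remaining members, the 4 probes of the assembly chaperones Psmd5, Psmd9 and Psmd10 differed by 0.01 to 0.66, and the inhibitor Psmf1 by 0.48, with none passing. Psmc3ip, which is no subunit, was the 1 probe higher in experiment 2. Its probe A_51_P256706 had -2.20, -1.29 and -0.84 in experiment 2, against -4.12, -2.93 and -2.21 in experiment 1 (1.62 ± 0.45, 3.07-fold, adjusted p = 0.0463). The cells did not overlap, as for 3.70% of tested probes higher in experiment 2. The second probe gave 1.58 ± 0.57 (adjusted p = 0.129). The call passed under 6 of 23 alternatives.

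With the brightest tested probe of each gene, the median difference between experiments was 0.39 over 13 core genes and 0.45 over 15 regulatory genes, against 0.19 over all tested probes. Restricted to probes measured on all 12 arrays, the core median over 8 genes was -0.38 and the regulatory median over 11 genes 0.27, against 0.06 over all such probes, so the sign of the core median depends on the filter. By role, the medians were 0.64 for the alpha ring, -0.52 for the beta ring, -1.09 for the inducible subunits, 0.65 for the base ATPases, 0.28 for the lid and -1.91 for PA28. The signs of the alpha ring, beta ring, inducible subunits, ATPases and PA28 held under 6 other value sets, while those of the lid, the base non-ATPases, the chaperones and the inhibitor turned under at least 1. The medians of the alpha ring and the ATPases were 0.039 and 0.040 with normexp, and 0.15 and 0.24 with the percentile over all probes. The all-probe median ran from -0.11 to 0.23 over those sets.

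Promoters were read for the members on which these comparisons turn, from RefSeq on GRCm38.p6, which held 39 promoters of 37 member genes. The 100 bases before the start are shown 5′ to 3′ for Psme1 (chr14:55578394-55578493, plus strand), Psmb3 (chr11:97703334-97703433, plus), Psmb5 (chr14:54617996-54618095, minus), Psmb6 (chr11:70525257-70525356, plus) and Psmd8 (chr7:29180674-29180773, minus). Capitals mark TGACNNNGC (N is any base), the core of the antioxidant response element that Nfe2l1 uses to raise proteasome genes in mammals, a GAAA repeated after any 2 bases, the core of the interferon response element, or CCAAT, searched on both strands.
Psme1: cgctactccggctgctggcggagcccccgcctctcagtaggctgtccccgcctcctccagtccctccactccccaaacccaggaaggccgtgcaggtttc
Psmb3: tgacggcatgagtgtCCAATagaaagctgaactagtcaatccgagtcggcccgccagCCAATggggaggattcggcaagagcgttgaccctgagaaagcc
Psmb5: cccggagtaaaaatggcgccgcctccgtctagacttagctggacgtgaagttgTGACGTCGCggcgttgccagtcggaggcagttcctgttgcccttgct
Psmb6: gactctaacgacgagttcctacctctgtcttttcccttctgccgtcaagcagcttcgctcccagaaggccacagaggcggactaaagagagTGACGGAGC
Psmd8: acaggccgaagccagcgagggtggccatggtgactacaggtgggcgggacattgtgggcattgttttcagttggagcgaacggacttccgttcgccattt

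In the 250 bases before the start, TGACNNNGC was found in 5 of 39 member promoters (12.8%), those of Psmb5, Psmb6, Psmc6, Psmd9 and Psmd12, against 10.2% of 32851 promoters. The GAAA repeat was found in 3 (7.69%), those of Psmb3, Psmd4 and Psmd9, against 2.98%, and in neither Psme1 nor Psmb9. CCAAT was found in 14 (35.9%), against 33.8%. A match describes the letters alone.

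Other genes of the pathway were read from lists. Their median differences between experiments were 0.39 for other proteasome parts, 0.23 for assembly factors, 0.10 for shuttle and unfolding factors and 0.15 for transcriptional regulators, against 0.19 over all tested probes. Other proteasome parts and processing enzymes, such as the ubiquitin receptor Adrm1 and the deubiquitinases Uchl5 and Usp14, had 8 tested probes. None passed between experiments. Adrm1 and Usp14 passed between embryos (adjusted p = 0.0467 and 0.033), where 5.73% of all probes did. Of 5 assembly factor probes, Akirin2, which carries proteasomes into the nucleus in human cells, was higher in experiment 2, as were 3.26% of all tested probes. It had 1.29 ± 0.28 against 0.07 ± 0.40 in experiment 1 (SD, n = 6 each; adjusted p = 0.0102). Psmg2, an alpha ring chaperone, passed between embryos (adjusted p = 0.033). Usp14 and Psmg2 were highest in pair D of experiment 2, the pair with the highest detection. Cells 2 and 1 of that pair had -2.77 and -2.41 for Usp14 and -3.42 and -3.09 for Psmg2. Most other cells lay on the floor.

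Of 17 probes of shuttle and unfolding factors, 3 probes of 2 genes were higher in experiment 2, where 3.26% of all tested probes were. They were 2 probes of Zfand5, which activates the proteasome (1.02 and 1.20, adjusted p = 0.0255 and 0.00507), and 1 of its arsenite-induced relative Zfand2a (1.51, adjusted p = 0.00077). The other tested Zfand2a probe, A_51_P377826, differed by -0.036 (adjusted p = 0.714) and left the floor only in cell 2 of pair L of experiment 1. Nsfl1c, a cofactor of the unfolding ATPase Vcp, was lower (-1.86, adjusted p = 0.044), as were 3.87% of all tested probes. The Ubqln1 probe A_51_P275740 passed between embryos (adjusted p = 0.0474). It was highest in pair D of experiment 2, with -3.16 and -2.98 in cells 2 and 1, and most other cells lay on the floor. The Ubqln1 probes A_52_P434974 and A_52_P322658, measured on all arrays, did not pass (adjusted p = 0.678 and 0.632). None of 5 probes of the transcriptional regulators Nfe2l1, Nfe2l2 and Ngly1 passed.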

How the data were processed

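Single blastomeres were profiled on Agilent Whole Mouse Genome arrays, 1 array per cell. Per the file headers, the deposited processed intensity values come from Feature Extraction 9.1.3.1, Agilent's scanner software, which subtracted the background and, for the 2-colour scans of experiment 1, normalized the dyes. Experiment 2 was scanned in 1 colour. The deposited mean and background intensity values, per the file headers, served the normexp alternative (offset 50). The authors' table of processed intensities, taken to log2 here, served another. How that table was scaled is not given in the sources used here.

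The processed signal of the channel holding the RNA was used. Outlier spots were left out, spots of a probe averaged, values divided by each array's 75th percentile over the 5858 probes measured (well above background) on all 12, floored and taken to log2. Tests covered the 16712 probes measured on 6 or more arrays. limma 3.58.1 in R 4.3.3 (lmFit, eBayes with a mean trend) gave moderated tests with Benjamini-Hochberg adjustment over all tested probes and a threshold of 0.05: an F test between embryos of an experiment, cell 2 against cell 1 with the embryo as a block, and experiment 2 against experiment 1 with the embryo as a random block (consensus correlation 0.35). Sister cells are the replicates of an embryo, so p-values between embryos measure the spread between sisters. The fits were tested on simulated data.

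Members and gene lists were chosen with earlier results of these data known, and no list has a p of its own. Results of 1 further list of the pathway are not reported here. The lists were other proteasome parts, assembly factors, shuttle and unfolding factors, transcriptional regulators, and markers of blastomeres, cumulus, oviduct, stroma, leucocytes and red cells. Values by cell, or the lowest, median and highest of an experiment, were given for members that passed a test, the 3 largest and 3 smallest by sister difference, the 3 highest and lowest by experiment among those measured on all arrays, and the 3 brightest. Cell numbers do not pair cells across embryos: twin differences correlated at -0.08 to 0.26 between embryos, over 0.1 in 3 of 15 pairs. Alternatives were another percentile, quantile normalization, normexp, other floors, the deposited table, other filters, single cells left out, blocks, and the fit without the trend, added after seeing the data.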

Additional observations from a re-analysis of the deposited data

Results flagged for a closer look

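In a check for single cells far from the rest of their experiment, run on 50 sets of 6 values, 1 stood out, where chance flags about 1 in 20. Psmb5 was at -2.99 log2 units in cell 2 of pair H of experiment 2, against -1.33 to -0.41 in the other 5 cells.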

How the results depend on the processing

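Between embryos, 2 members passed, and 6 did with a floor per array (29.1% of all probes, against 5.73%), 1 with the cell number as a replicate block (3.42%) and 0 to 9 with single cells left out. With the percentile over all probes 2 also passed (2.47%), but they were other probes. The Psma4 and Psmb2 probes then failed the F test in limma (adjusted p = 0.738 and 0.213). In limma 0 passed with quantile normalization, normexp, the lower floor, the deposited values, probes measured on all arrays, no filter, experiment 1 alone and no mean trend, where 0 to 6.04% of all probes passed, although 6, 9, 10, 6, 3, 12, 0 and 13 had an unadjusted p under 0.05. Between experiments, 4 passed (1 higher, 3 lower), and 1 (lower; 0.874% of all probes, against 7.13%) with the percentile over all probes, 9 (3 higher, 6 lower; 10.0%) with quantile normalization, 8 (1 and 7; 10.2%) with normexp, 3 (all lower) with the replicate block and 1 to 6 with single cells left out. Between cell 2 and cell 1, 0 passed in limma under all 18 alternatives, the fit with no replicate block included. The count of members over 1.5-fold apart in every embryo was 1, and 0 with quantile normalization or normexp, 2 with the lower floor or the deposited values, and 1 to 3 without single embryos, 2 without pair D of experiment 2 and 3 without pair D of experiment 1. The core median between experiments, 0.39, was 0.073 with the percentile over all probes, 0.84 with the lower floor, 1.03 with the deposited values, -0.065 with normexp and -0.38 over probes measured on all arrays, and the regulatory median, 0.45, was -0.020 with normexp. The core median of sister differences, 0.58, was 0.83 with the percentile over all probes, 0.91 with either other floor, 0.86 with the deposited values and 0.82 over probes measured on all arrays, and the regulatory one, 0.58, was 0.36 with normexp. The cause of these changes was not tested. Low signal over background limits 17 member probes, which were measured on under 6 arrays.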
